A study of Mus musculus with 6 samples.

Results

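The mouse mitochondrial genome carries 37 genes, and all 37 were among the 10065 genes for which small RNA reads of mouse hearts were counted. They comprise 22 tRNA genes, 2 rRNA genes and 13 protein-coding genes, chosen by the classes Mt_tRNA and Mt_rRNA and, for the protein-coding genes, by a symbol that begins with mt-. Each was matched by its Ensembl identifier to GENCODE M21, which places all of them on the mitochondrial chromosome and no further gene there. Libraries of small RNA came from the whole hearts of 3 ADAR2-/- mice and 3 wild type siblings of strain SV129 at postnatal day 6, to find RNAs whose abundance depends on ADAR2, an enzyme that deaminates adenosines in double-stranded RNA. The genotype labels read Adarb1-/-, Gria2R/R for the knockouts and wild type for the controls. The extraction notes and the study's methods give the R/R form of the glutamate receptor gene, which encodes the edited receptor, to both genotypes, and the methods describe the animals as female. The value used for each gene is the mean normalized count, the authors' mean over their libraries of read counts divided by a size factor per library. No value per library was at hand, so the depth of a library and the spread between animals are unknown, the 2 genotypes were not compared, and every value below is a description without an error. It also could not be checked whether Adarb1 was lower in the libraries of the knockouts.

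Mitochondrial DNA is a circle from which long RNAs are transcribed off both strands, and tRNAs that lie between the longer genes are cut out by nucleases at their 5′ and 3′ ends, which releases the rRNAs and mRNAs between them. The 13 proteins are subunits of the respiratory chain and ATP synthase, and all other proteins of the organelle, including the polymerase, the processing enzymes and the aminoacyl-tRNA synthetases, are encoded in the nucleus. Heart muscle is rich in mitochondria, because its contraction depends on oxidative phosphorylation. A library of small RNA captures short RNAs and fragments of long ones. A level given here is therefore one of short reads and not of intact rRNA, mRNA or tRNA. For tRNA, the read lengths in the study's methods are shorter than every mitochondrial tRNA gene. Whether a read came from a whole tRNA or from a fragment was not tested.

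The tRNA genes spanned a wide range of levels, and the sequences of the highest and the lowest are shown because the contrast among them is the main pattern of the data. They are the GRCm38 reference sequences of GENCODE M21, written 5′ to 3′ on the strand of the tRNA in DNA letters and without the CCA end that is added after transcription. They are not sequences of the SV129 mice. Capitals mark the anticodon, the 3 bases that pair with a codon. The 5 highest tRNA genes were mt-Ts2 (serine, chrM:11613-11671), mt-Th (histidine, chrM:11546-11612), mt-Tm (methionine, chrM:3845-3913), mt-Td (aspartate, chrM:6942-7011) and mt-Tv (valine, chrM:1025-1093), all on the plus strand of the reference.
mt-Ts2: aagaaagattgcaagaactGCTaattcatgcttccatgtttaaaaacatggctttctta
mt-Th: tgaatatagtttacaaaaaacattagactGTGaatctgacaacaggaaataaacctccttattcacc
mt-Tm: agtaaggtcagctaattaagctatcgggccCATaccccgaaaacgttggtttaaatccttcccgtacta
mt-Td: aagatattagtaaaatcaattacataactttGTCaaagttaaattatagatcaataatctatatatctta
mt-Tv: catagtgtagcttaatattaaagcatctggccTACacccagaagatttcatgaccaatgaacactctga

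The 5 lowest were mt-Tt (threonine, chrM:15289-15355), mt-Ty (tyrosine, chrM:5260-5326, minus strand), mt-Tl2 (leucine, chrM:11671-11741), mt-Tk (lysine, chrM:7700-7764) and mt-Tr (arginine, chrM:9808-9875). All but mt-Ty lie on the plus strand.
mt-Tt: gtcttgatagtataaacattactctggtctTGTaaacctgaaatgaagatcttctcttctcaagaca
mt-Ty: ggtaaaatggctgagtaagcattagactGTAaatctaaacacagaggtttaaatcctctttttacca
mt-Tl2: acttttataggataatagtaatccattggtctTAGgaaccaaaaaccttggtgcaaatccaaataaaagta
mt-Tk: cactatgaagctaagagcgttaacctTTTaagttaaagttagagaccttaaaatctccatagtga
mt-Tr: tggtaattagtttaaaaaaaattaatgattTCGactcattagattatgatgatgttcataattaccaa

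Serine and leucine each have 2 tRNA genes in this genome. The partners of mt-Ts2 and mt-Tl2 are mt-Ts1 (chrM:6870-6938, minus strand) and mt-Tl1 (chrM:2676-2750, plus strand). The mt-Ts2 gene is shorter than the others at 59 bases, and its anticodon starts at base 20, where that of mt-Ts1 starts at base 31. The serine tRNA it encodes is known to lack the arm that carries dihydrouridine in other tRNAs.
mt-Ts1: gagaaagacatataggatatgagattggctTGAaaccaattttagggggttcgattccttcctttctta
mt-Tl1: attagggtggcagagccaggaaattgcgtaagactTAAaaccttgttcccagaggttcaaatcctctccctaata

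The 37 genes together had a summed mean normalized count of 2758, which was 1.29% of the sum of 214408 over all genes of the table. The tRNA genes accounted for 1345 of it (48.8%), the rRNA genes for 1049 (38.0%) and the protein-coding genes for 365 (13.2%). This order runs against the length of sequence in each class, since tRNA genes make up 9.72% of the bases of the 37 genes, rRNA genes 16.4% and protein-coding genes 73.8%. Divided by gene length, the median was 68.6 mean normalized counts per 100 bases for tRNA genes and 2.78 for protein-coding genes, a ratio of 24.7. The 2 classes did not overlap on this scale, as the lowest tRNA gene, mt-Tr, lay 1.83-fold above the highest protein-coding gene, mt-Co1. With 49 bases added to each length, as for a read of 50 bases counted on any overlap, the same gap was 1.10-fold. Both rRNA genes lay above every protein-coding gene, and 5 of the 22 tRNA genes lay below both.

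**Figure D1:**
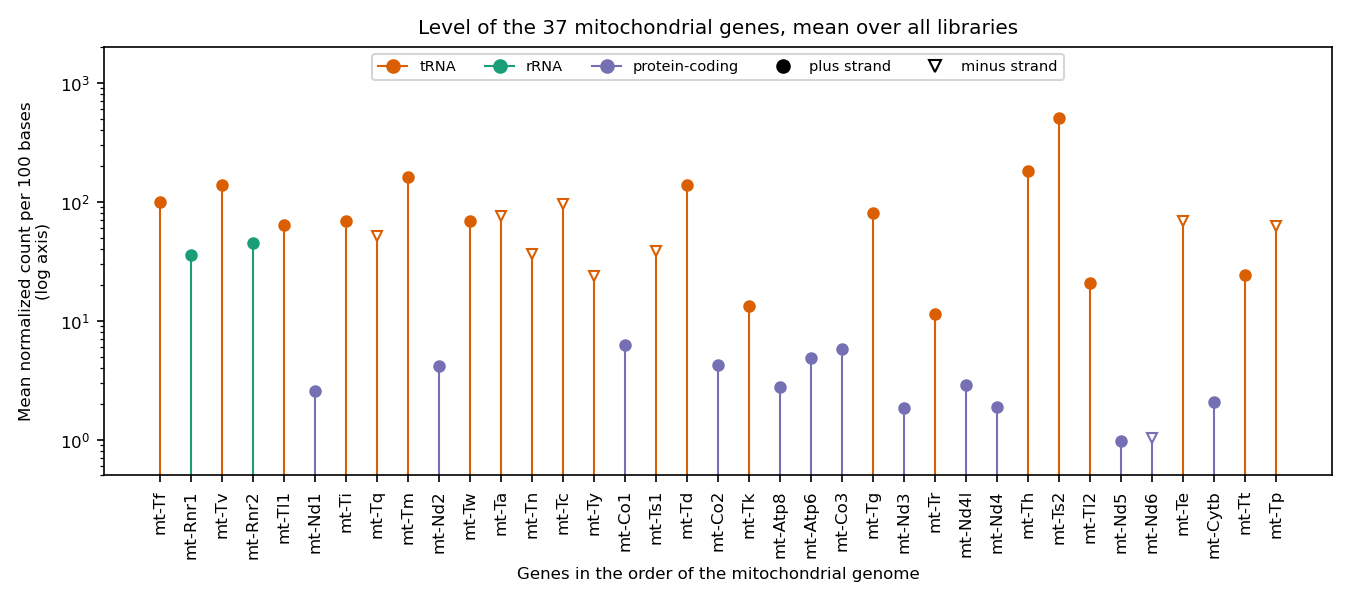
Mean normalized count per 100 bases of gene (log axis) for the 37 mitochondrial genes, in their order along the genome from mt-Tf to mt-Tp. Colours give the class, filled circles the plus strand and open triangles the minus strand, and each point is the authors' mean over libraries, without an error. All tRNA genes (11.4 to 502) lie above all protein-coding genes (0.969 to 6.22), and mt-Ts2 stands highest.

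Compared with all genes of the table, whose median mean normalized count was 6.65, 34 of the 37 lay above the median. The highest were mt-Rnr2 at rank 27, mt-Rnr1 at rank 67 and mt-Ts2 at rank 81 of the 10065 genes. The first 1000 genes by level held 20 of the 37, of which 15 were tRNA genes. By level per 100 bases of exon, 17 tRNA genes and both rRNA genes were among the first 100 of the 10005 genes with an annotated length. For comparison, the median per 100 bases was 8.43 over miRNA genes, 6.54 over snRNA genes, 5.27 over snoRNA genes and 4.69 over nuclear rRNA genes. The highest gene of each of these classes had 1218, 516, 92.0 and 842, against 502 for mt-Ts2. Over protein-coding genes, the mitochondrial ones left out, it was 0.135.

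The tRNA genes, which decode the 13 mRNAs of the organelle, differed 38.3-fold from the highest to the lowest. The highest, mt-Ts2, reads the serine codons AGC and AGU and had a mean normalized count of 296, which was 10.7% of the total of the 37 genes. It was followed by mt-Th (histidine) at 122, mt-Tm at 112, mt-Td at 96.7 and mt-Tv at 96.3. Methionine starts every mitochondrial protein, and mt-Tm serves both the start and the internal codons. The 5 highest tRNA genes held 53.8% of the tRNA total, and they were also the 5 highest per 100 bases of gene.

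The middle of the order was dense. It ran from mt-Tf (phenylalanine, the first gene after the control region) at 67.1, mt-Tc (cysteine) at 62.6, mt-Tg (glycine) at 54.8 and mt-Ta (alanine) at 52.8 through mt-Tl1 (leucine) at 48.3, mt-Ti (isoleucine) at 47.6, mt-Te (glutamate) at 47.1 and mt-Tw (tryptophan) at 46.4 to mt-Tp (proline) at 41.9 and mt-Tq (glutamine) at 36.9. Then came mt-Ts1 (serine) at 26.6 and mt-Tn (asparagine) at 26.0. Neighbours in this stretch differ by little and, with no spread between animals at hand, their order carries no measure of certainty.

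The 5 lowest tRNA genes held 4.69% of the tRNA total. The mean normalized count was 16.2 for mt-Tt, 15.8 for mt-Ty, 14.8 for mt-Tl2, 8.59 for mt-Tk and 7.74 for mt-Tr. Without mt-Ts2, the highest of the remaining 21 tRNA genes lay 15.8-fold above the lowest.

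**Figure D2:**
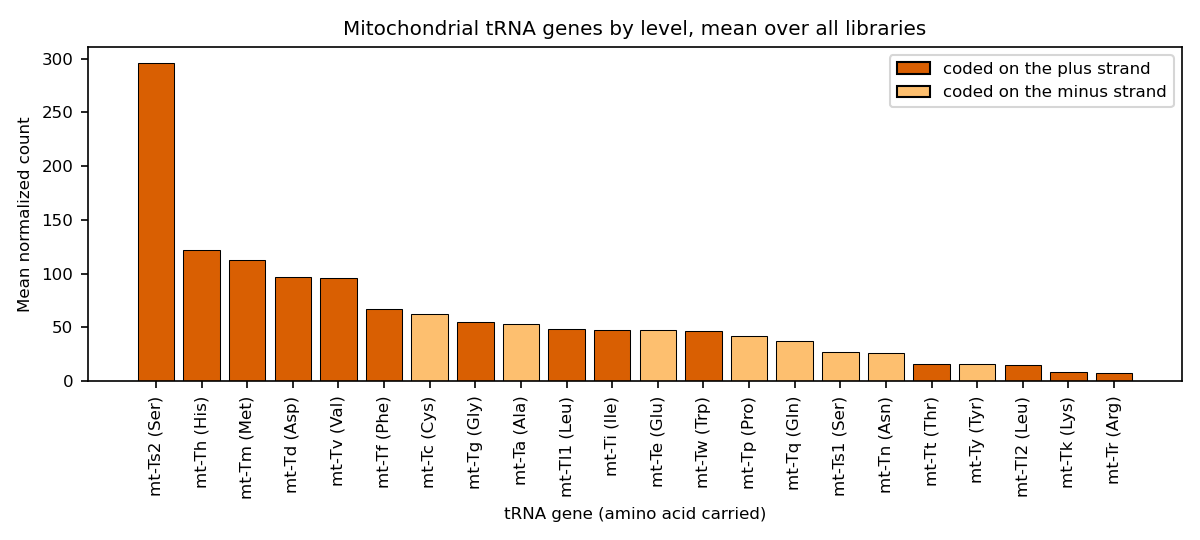
Mean normalized count of the 22 mitochondrial tRNA genes, ordered from highest to lowest, with the amino acid each tRNA carries. Bars start at 0, the shade gives the coding strand, and no error is available. The bar of mt-Ts2 reaches 296 and that of mt-Tr 7.74, and the minus-strand genes lie between 15.8 and 62.6.

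Neighbouring tRNA genes differed widely in level. The tRNA genes mt-Th, mt-Ts2 and mt-Tl2 follow each other on the plus strand with no base between them, and mt-Ts2 and mt-Tl2 overlap by 1 base. Their mean normalized counts were 122, 296 and 14.8. So mt-Ts2 lay 20.1-fold above the gene directly downstream of it, and 24.1-fold above it per 100 bases. Together these 3 genes held 32.2% of the tRNA total. Over the 10 pairs of tRNA genes that are direct neighbours in the genome, the higher lay above the lower by a median of 2.51-fold, from 1.14-fold for mt-Tw and mt-Ta to the 20.1-fold of mt-Ts2 and mt-Tl2. In the run of minus-strand genes mt-Ta, mt-Tn, mt-Tc and mt-Ty the mean normalized counts were 52.8, 26.0, 62.6 and 15.8.

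The tRNA genes for the same amino acid also differed in level. For serine, mt-Ts2 lay 11.1-fold above mt-Ts1, which reads the UCN codons. For leucine, mt-Tl1, which reads UUA and UUG, lay 3.27-fold above mt-Tl2, which reads the CUN codons. This order did not follow codon use in the 13 mRNAs, where 49 codons are read by mt-Ts2 and 240 by mt-Ts1, and 144 by mt-Tl1 and 444 by mt-Tl2. The gene with the fewest codons to read, mt-Tc with 28, lay in the upper part of the order, while mt-Tl2, with the most, was the third from the bottom. Across the 22 tRNA genes, the number of codons read and the log2 of the mean normalized count had a Pearson r of -0.21 and a Spearman rho of -0.15 (n = 22), and -0.10 and -0.03 without mt-Ts2 (n = 21). These are correlations across genes that share their libraries, which are not independent replicates, and they describe this set of genes. GC content gave an r of 0.12 and a rho of -0.0034 over the 22 genes.

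By coding strand, the 14 plus-strand tRNA genes had a summed mean normalized count of 1035 and the 8 minus-strand genes 309.7, or 23.0% of the tRNA total. The medians were closer, at 51.6 and 39.4. The plus-strand genes ranged from 7.74 to 296 and thus held both ends of the order, while the minus-strand genes stayed between 15.8 and 62.6. Strand here is that of the annotated gene. In the same table, the miRNA genes Mir30e and Mir30f, annotated on opposite strands of the same bases, had the same value of 7.64, and Mir451a and Mir451b both had 15.1, so reads were not assigned by strand in these pairs. For tRNA genes, a read of the opposite strand can therefore not be told apart from a read of the tRNA.

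The rRNA genes encode the RNAs of the small (mt-Rnr1, chrM:70-1024) and large (mt-Rnr2, chrM:1094-2675) subunits of the mitochondrial ribosome and flank mt-Tv. The mean normalized count was 339.9 for mt-Rnr1 and 709 for mt-Rnr2, a ratio of 2.09, and 35.6 and 44.8 per 100 bases, a ratio of 1.26. The tRNA genes around them were lower by mean normalized count (mt-Tf 67.1, mt-Tv 96.3 and mt-Tl1 48.3) and higher per 100 bases (98.6, 139.6 and 64.3). The protein-coding gene that follows, mt-Nd1, lay 17.4-fold below mt-Rnr2 per 100 bases.

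The 13 protein-coding genes ranged from 5.38 to 96.1, and 4 of them had a mean normalized count under 10. Per length, mt-Co1 and mt-Co3 of cytochrome c oxidase (complex IV), which passes electrons to oxygen, were the highest. For this complex the mean normalized counts were 96.1 for mt-Co1 (chrM:5328-6872), 28.8 for mt-Co2 (chrM:7013-7696) and 45.4 for mt-Co3 (chrM:8607-9390), or 6.22, 4.21 and 5.80 per 100 bases. The ATP synthase (complex V) subunits were at 33.0 for mt-Atp6 (chrM:7927-8607) and 5.67 for mt-Atp8 (chrM:7766-7969), or 4.84 and 2.78 per 100 bases, and these genes overlap by 43 bases. Cytochrome b of complex III, mt-Cytb (chrM:14145-15288), was at 23.8, or 2.08 per 100 bases.

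The 7 subunits of NADH dehydrogenase (complex I), the entry point of electrons from NADH, had a median of 1.87 per 100 bases. The highest was mt-Nd2 (chrM:3914-4951) with a mean normalized count of 43.6 and 4.20 per 100 bases. It was followed per 100 bases by mt-Nd4l (chrM:9877-10173) at 2.86, mt-Nd1 (chrM:2751-3707) at 2.58, mt-Nd4 (chrM:10167-11544) at 1.87 and mt-Nd3 (chrM:9459-9806) at 1.85, whose mean normalized counts were 8.51, 24.7, 25.8 and 6.44. The lowest per 100 bases were mt-Nd6 (chrM:13552-14070) at 1.04 and mt-Nd5 (chrM:11742-13565) at 0.969, with mean normalized counts of 5.38 and 17.7. Of the protein-coding genes, mt-Nd6 alone lies on the minus strand. It overlaps the end of mt-Nd5 by 14 bases, and mt-Te, the next gene of that strand, lay 65.8-fold above it per 100 bases.

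Longer protein-coding genes had higher mean normalized counts, with an r of 0.64 and a rho of 0.54 between length and the log2 value (n = 13 genes that share their libraries). Per 100 bases the spread between the highest and the lowest shrank from 17.8-fold to 6.42-fold.

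Several protein-coding genes have copies in the nuclear genome, pieces of mitochondrial DNA that were inserted into chromosomes and are annotated as pseudogenes. A stretch of chromosome 1 (GRCm38, chr1:24611535-24616197, minus strand) carries 7 such pseudogenes in the same order as mt-Co1 to mt-Nd4. Each gene was compared with all annotated transcripts outside the mitochondrial genome by its 22-base stretches on both strands. Of the 13 protein-coding genes, 12 shared at least 1 stretch with another transcript, all but mt-Nd1. For 5 of them a copy held over 90% of the stretches, and all 5 of these copies lie in this part of chromosome 1. For mt-Co2 and its copy Gm28661 the shared part was 660 of 663 stretches, and the aligned 681 bases had 0 mismatches. The start of this shared sequence, chrM:7013-7072, is shown in lower case throughout, since no base of it differs between the genes.
mt-Co2 and Gm28661: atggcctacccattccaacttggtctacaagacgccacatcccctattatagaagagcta

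The levels of these genes and copies were the same or nearly so. Both mt-Co2 and Gm28661 had a mean normalized count of 28.8, and both mt-Nd4l and Gm10222 had 8.51, equal to every digit of the table. The values were 33.0 for mt-Atp6 and 32.7 for Gm10925, and 45.4 for mt-Co3 and 45.3 for Gm28437. For mt-Nd3, at 6.44, the copy Gm28438 was slightly higher at 6.91. These differ at 1 aligned base, T3C, counted from the first base of the gene and with the base of mt-Nd3 first. The beginnings of both are shown with that base in capitals, from chrM:9459-9491 and chr1:24613087-24613119 (minus strand).
mt-Nd3: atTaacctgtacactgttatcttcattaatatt
Gm28438: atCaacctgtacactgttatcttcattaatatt

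Over the identical bases, reads of mitochondrial RNA and of the nuclear copy cannot be told apart. This holds also for part of mt-Nd4, since its copy Gm28439 held 63.0% of its stretches and aligned over 876 bases with 0 mismatches. Copies that were shorter or had diverged had lower mean normalized counts. Gm28439 had 14.2 against 25.8 for mt-Nd4. Gm29216, a copy of the 3′ part of mt-Co1 with 30.1% of its stretches, had 36.8 against 96.1. On chromosome 2, Gm13340 shared 58.1% of the stretches of mt-Co1, with 37 mismatches, and had 68.0, Gm13341 shared 56.7% of those of mt-Co2 and had 16.5, and Gm13339 shared 20.9% of those of mt-Nd2 and had 32.0 against 43.6. Copies of mt-Nd5 and mt-Cytb elsewhere, Gm4076, Gm11407 and Gm11410, shared 12.3% to 19.7% and had 2.62, 3.29 and 4.68. Per 100 bases the order turned for the shorter copies Gm29216, at 7.49 against 6.22 for mt-Co1, and Gm13339, at 6.28 against 4.20 for mt-Nd2.

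**Figure D3:**
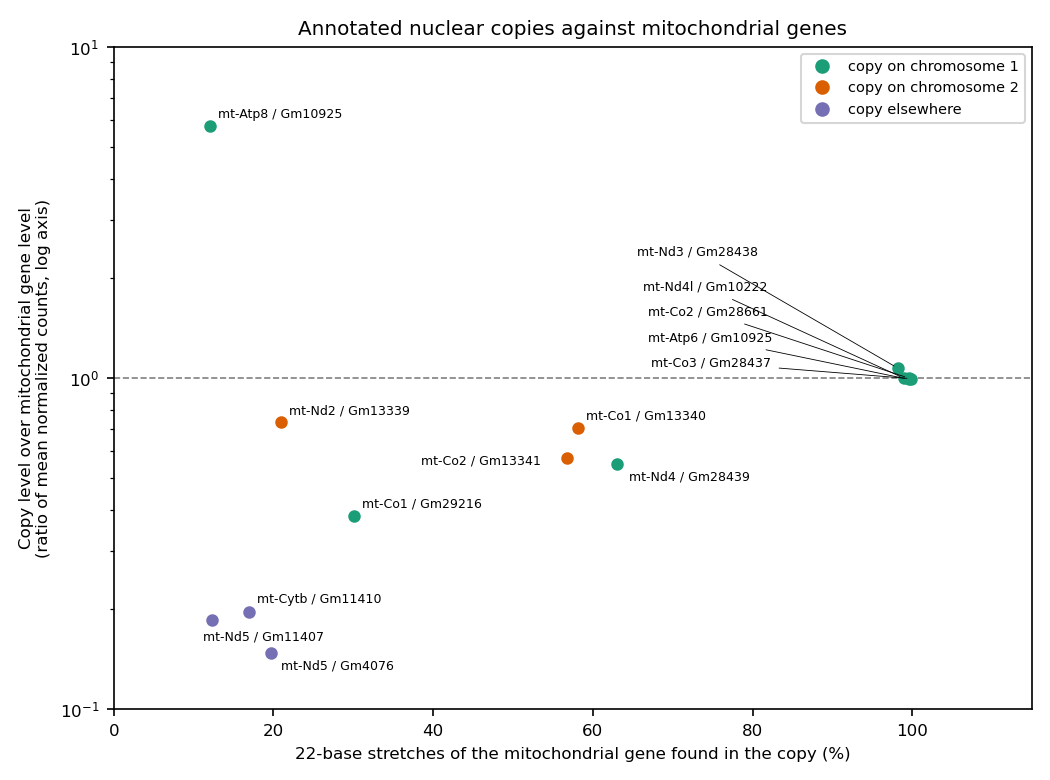
Level of annotated nuclear copies relative to their mitochondrial gene (ratio of mean normalized counts, log axis) against the percentage of 22-base stretches of the mitochondrial gene found in the copy, for Gm pseudogenes in the table with at least 10% of the stretches. Points at the right, all on chromosome 1, lie at or near a ratio of 1 (dashed line), and copies that share less lie below it except Gm10925 against mt-Atp8, which it meets only where mt-Atp8 overlaps mt-Atp6.

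Among annotated transcripts, the tRNA genes had little such overlap. Of the 22, 18 shared no 22-base stretch with any other annotated transcript, among them the 5 highest. The exceptions were mt-Tf with 1 stretch in Mir6481, mt-Tl1 with 5 and mt-Ty with 13 in Cep295, and mt-Tt with 4 in Gm43841. Of the rRNA genes, mt-Rnr1 shared none and mt-Rnr2 shared 73 of 1561 with Gm20594, which had a mean normalized count of 70.5. However, nuclear copies outside annotated transcripts could not be found in this way, so these counts do not show that none exist. For chromosome 1, 5 tRNA genes (mt-Ts1, mt-Td, mt-Tk, mt-Tg and mt-Tr) lie between mitochondrial genes whose copies follow each other there. Of these, mt-Td is among the 5 highest tRNA genes. The intervals between the copies have the same length as in the mitochondrial genome around mt-Ts1, mt-Td, mt-Tk and mt-Tg, and differ by 1 base around mt-Tr. Copies of mt-Nd2, mt-Co1 and mt-Co2 on chromosome 2 (chr2:22587291-22590533, minus strand) also keep the mitochondrial order. Between those mitochondrial genes lie mt-Tw, mt-Ta, mt-Tn, mt-Tc and mt-Ty, and again mt-Ts1 and mt-Td. On chromosome 4, copies of mt-Nd6 (Gm11408) and mt-Cytb (Gm11410) follow each other, as do the genes that flank mt-Te. Whether the nuclear DNA at any of these places matches the tRNA genes was not tested.

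The respiratory complexes also need subunits from nuclear genes. Of 80 annotated nuclear genes of oxidative phosphorylation, 18 were in the table, with a median of 0.198 mean normalized counts per 100 bases of exon. The median of the 13 mitochondrial genes lay 14.1-fold above that of these 18 nuclear genes, and all 13 lay above the nuclear median. This ratio depends on the length used for the nuclear genes, as it was 7.10 with the longest transcript and 34.8 with the whole gene span, and 4.40 when only genes with a mean normalized count of at least 10 were taken on both sides. By complex, the table held 8 of 36 nuclear genes of complex I, 1 of 4 of complex II, 3 of 9 of complex III, 0 of 15 of complex IV and 6 of 16 of complex V. The share of all annotated protein-coding genes that were in the table is not given here. Such counts therefore cannot be read as high or low. The highest was Uqcrc1, a core subunit of complex III, with a mean normalized count of 256 and 6.19 per 100 bases of exon, just under mt-Co1. On this scale it alone of the 18 lay above the median mitochondrial gene. The next of complex III, Uqcr10, was at 0.336. Ndufb3 and Ndufv1 led complex I at 1.51 and 0.423, and Atp5o and Atp5k led complex V at 0.955 and 0.922 per 100 bases of exon. The gene of complex II was Sdha, at 0.0626.

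**Figure D4:**
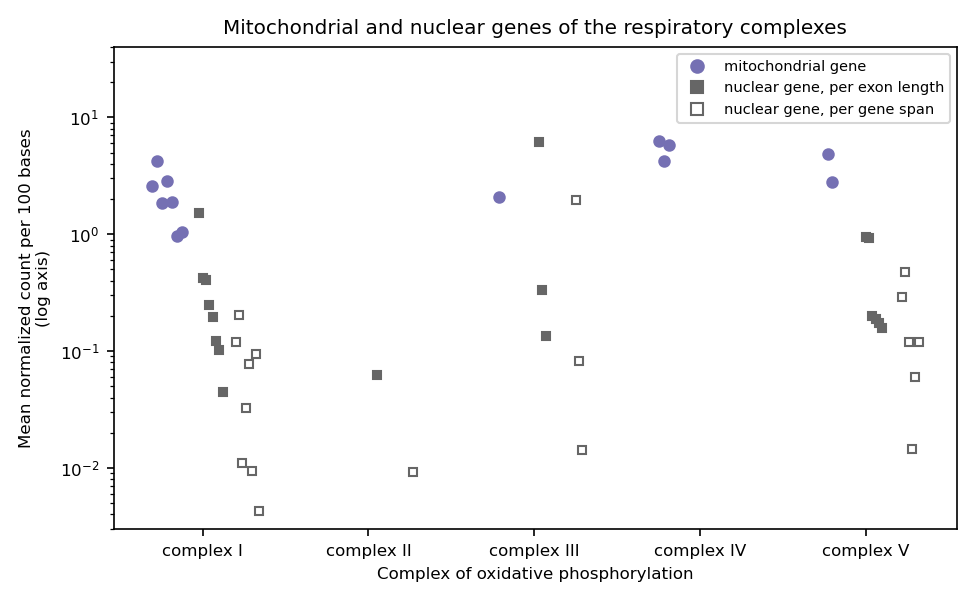
Mean normalized count per 100 bases (log axis) of mitochondrial and nuclear genes by complex of oxidative phosphorylation. Circles are mitochondrial genes, filled squares nuclear genes per length of exon and open squares the same genes per whole gene span, each the authors' mean over libraries. The mitochondrial genes lie between 0.969 and 6.22, and the 18 nuclear genes lie lower on both scales with Uqcrc1 (6.19 and 1.97) and, per exon, Ndufb3 (1.51) as the exceptions that reach their range.

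A nuclear gene's value can hold other RNAs from its introns. In these data the value of Mir208b was 99.4% of that of its host Myh7, and the value of Mir208a 97.3% of that of Myh6. Whether the same reads were counted for both genes was not tested. If they were, a level per exon is an upper reading for a gene with such RNAs. For mitochondrial genes, which have no introns, the corresponding overlap is that of 16 members with a neighbour, by at most 44 bases in all.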

How the data were processed

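Small RNA libraries were made from total RNA of 6 hearts, 3 per genotype. According to the study's methods and the submitters' processing notes, the authors trimmed adaptors with Cutadapt, mapped reads with Bowtie (the notes name mm9) and compared genotypes with DESeq. The methods give single-end reads of 50 bases in the paragraph on genome mapping with Bowtie, and reads of 36 bases in another, which names this deposit and is followed by mapping to mature miRNAs; which length applies here was not settled. Tool versions and the handling of reads with several matches are not given in the sources used here. The values are a signal, the mean normalized count per gene that the authors deposited. The 6 other deposited columns hold the authors' fold changes, standard errors, statistics and p-values between genotypes and were not used. Which libraries enter the mean is not listed.

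Names, lengths, coordinates and sequences were taken by Ensembl identifier from GENCODE M21 (GRCm38), which holds 10005 of 10065 identifiers; the table itself has no coordinates. Level per 100 bases is the mean normalized count divided by gene length (exon length for nuclear genes). Anticodons were found as the middle of a loop of 7 bases on a stem of 5 with at least 3 pairs that fits the amino acid in the vertebrate mitochondrial code; 18 of 22 tRNA genes had a single match, and the best was taken for the rest. Shared sequence was counted in stretches of 22 bases. The anticodon search and the count of shared stretches were tested on simulated sequences, and the other steps were not. All 37 genes are named, with the 2 highest per length of each list of nuclear genes; further nuclear genes were named after their values were seen. Members and lists were chosen with earlier results of these data known. Python 3.11.15, numpy 2.4.6, scipy 1.17.1, biopython 1.88 and matplotlib 3.10.9 were used.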

Additional observations from a re-analysis of the deposited data

How the results depend on the processing

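In all, 23 alternatives were computed, and 16 stayed within 1.5 times the value given above. The level per 100 bases depends on the length used. When 49 bases were added to each gene, as for reads of 50 bases counted on any overlap, the tRNA median fell from 68.6 to 39.9 and its ratio to the protein-coding median from 24.7 to 16.3. With 35 bases, as for reads of 36, these were 45.4 and 18.2, and the lowest tRNA gene lay 1.24-fold above the highest protein-coding gene. With genes of a mean normalized count of at least 10 only, the protein-coding median was 4.20. The ratio of mt-Rnr1 to mt-Rnr2 was 0.794 per 100 bases and 0.479 without a correction for length. The median of the nuclear genes of oxidative phosphorylation was 0.391 per 100 bases of the longest transcript, 0.0799 of the gene span and 0.955 with genes of a mean of at least 10. The share of the 37 genes in the whole table ranged from 0.959% without mt-Rnr2 to 1.56% against protein-coding and mitochondrial genes only, and leaving out the 5 genes with near-full nuclear copies gave 1.23%. The alternatives with 35 or 49 added bases and without the genes with nuclear copies were chosen after seeing the data. Leaving out a replicate was not run, since no value per library was at hand. No paired analysis was possible because the values are means over libraries. For the same reason the precision of a level is unknown, and a difference between genes of similar level cannot be read from it.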

Other observations

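Of the nuclear genes for transcription and replication of the mitochondrial genome, 4 of 14 were in the table, and the highest per 100 bases of exon were the RNA polymerase Polrmt with a mean normalized count of 7.35 and the termination factor family member Mterf3 with 4.91. Of those for processing and stability of its RNA, 3 of 17 annotated were present, and the highest by the same measure were Rexo2, an oligoribonuclease, with a mean normalized count of 4.06 and Angel2 with 4.74. Mitochondrial aminoacyl-tRNA synthetases were present for 11 of 19. The leucine enzyme Lars2 had 381 and the phenylalanine enzyme Fars2 46.2, while the median of the 11 was 5.04.

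Of the marker genes of heart muscle cells, 8 of 10 were in the table, led by Myh7 and Myh6 with 943 and 425. These values were close to those of the miRNAs in their introns, Mir208b with 938 and Mir208a with 413. Ttn had 82.9, Ryr2 63.6, Actc1 10.03, Mybpc3 9.87, Pln 5.39 and Tnnt2 4.82, while Tnni3 and Nppa were not listed. For other cell types the table held 4 of 4 endothelial markers, 4 of 5 of fibroblasts, 0 of 3 of smooth muscle, 3 of 4 of erythroid cells, 2 of 3 of macrophages, 0 of 2 of liver, 1 of 3 of skeletal muscle and 3 of 3 of neurons. Among the neuronal markers, Rbfox3 had 173, Syt1 114 and Snap25 6.03. The 2 highest per 100 bases of exon were Tek and Pecam1 for endothelium (9.36 and 11.6), Col3a1 and Pdgfra for fibroblasts (44.8 and 13.8), Hba-a1 and Hbb-bs for erythroid cells (4.71 and 3.21) and Adgre1 and Ptprc for macrophages (2.51 and 7.93), each given as a mean normalized count. The skeletal muscle marker was Acta1 with 5.79. The source of these reads was not tested. As no share over all annotated genes is given, the counts of genes present in this section cannot be read as high or low.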
